A study of Mus musculus with 16 samples.

Results

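A set of 10 genes of the early transcriptional response to activity were followed in ribosome-bound RNA from astrocytes and in whole-tissue RNA of the mouse somatosensory cortex. They were Egr1, Egr2, Egr3, Egr4, Arc, Npas4, Ier2, Ier5, Btg2 and Homer1, chosen by symbol, and all 10 were present among the 24060 genes of each library. The mice were C57BL/6J animals aged 3 months that carried Aldh1l1CreERT2 and RiboTag, and all of them, controls included, had received tamoxifen (1 month before the swim by the labels, a shorter interval by the methods). In this model Cre is driven by Aldh1l1, an astrocyte gene, and switches a ribosomal protein, Rpl22, to a copy with an HA tag, so that tagged ribosomes and their mRNA can be pulled down from a tissue lysate. RNA from this immunoprecipitate is called IP, and RNA of the cleared lysate from all cell types is called INPUT. Stressed mice swam for 20 min and then spent 90 min in the home cage, which the naïve mice never left. Tissue was homogenized per animal, with 4 mice in each condition by the paper, and IP and INPUT were taken from the same lysate. Each of the 4 groups (IP and INPUT, each of naïve and of stressed mice) held 4 libraries, 16 in all, and the replicate numbers below are the study's library numbers.

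Immediate early genes are transcribed within minutes of a calcium or growth factor signal, without the need for new protein, mainly through the factors CREB and SRF that wait at their promoters. The Egr family encodes zinc finger transcription factors. Arc and the short form of Homer1 act at the synapse and are classical marks of recently active cortical neurons, and Npas4 is a transcription factor that is induced by calcium entry in neurons. Ier2 and Ier5 encode related immediate early response proteins, and Btg2 is an antiproliferative partner of the mRNA deadenylation machinery.

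Promoter sequence (250 bases before to 50 bases after a RefSeq start, GRCm38.p6) was at hand for 6 of the 10 genes, Egr2, Egr4, Npas4, Ier5, Btg2 and Homer1. Both strands were searched for the SRF site (the CArG box), for the CREB site TGACGTCA, for its half-site TGACG, which the full site contains, and for the Egr sites GCGGGGGCG and GCGTGGGCG. A gene can have several windows (Egr2 has 5), and shares are of the 27025 genes with a window. The CArG box was in windows of Egr2 alone, against 1.81% of all genes. The full CREB site was in the window of Btg2 alone, against 2.03% of genes, and the half-site was in 5 of the 6 genes, all but Ier5, against 23% of genes (20.8% of all 32851 windows). Neither Egr site was in the windows of the 6 genes, against 3.31% and 0.707% of genes. A match is a run of letters and was not tested as a binding site. The stretches below are examples from Egr2 and Egr4, the pair whose INPUT values separated with stress, and from Btg2, Npas4 and Homer1. Further half-sites of Egr2 and Homer1 are not shown. A link between the motifs and the stress values was not tested. Capitals mark the named motif, on either strand, and each stretch is read 5′ to 3′ on the strand of the gene. The Npas4 stretch also holds another match of the half-site, left in small letters.
Egr2, CArG box, chr10:67537788-67537815, + strand: ttcctcagtCCATATATGGgcagcgacg
Egr2, CArG box at another start, chr10:67537485-67537512, + strand: ggatcttctCCTTTTTTGGaaagtctcg
Egr2, CREB half-site, chr10:67537803-67537829, + strand: atgggcagcgaCGTCAcgggtattgaa
Egr4, CREB half-site, chr6:85513683-85513709, − strand: ttggtcatttaCGTCAcggcgccaggg
Egr4, CREB half-site, chr6:85513751-85513777, − strand: ggcggcagcaaCGTCAcaggccgagct
Btg2, CREB site, chr1:134079304-134079331, − strand: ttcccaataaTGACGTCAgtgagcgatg
Npas4, CREB half-site, chr19:4990135-4990161, − strand: ctcccgttcgaCGTCAcgggatgacgt
Homer1, CREB half-site, chr13:93303690-93303716, + strand: cccgcacaagcTGACGtgagcggaggg

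The genes lie at separate loci, placed as follows by GENCODE M21 on GRCm38 (mm10). Egr1 is on chr18 at 34859823 to 34864984, Egr2 on chr10 at 67535475 to 67542188, Egr3 on chr14 at 70077203 to 70082614 and Egr4 on chr6 at 85511121 to 85513589. Arc is on chr15 at 74669083 to 74672570, Npas4 on chr19 at 4984355 to 4990316 and Homer1 on chr13 at 93299635 to 93405129. Ier2 is on chr8 at 84661331 to 84662852, Ier5 on chr1 at 155096361 to 155099636 and Btg2 on chr1 at 134075170 to 134079120. Ier2 and Ier5 have 1 exon each, and no annotated exon of another gene overlapped the exons of any of the 10.

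The libraries held 16392876 to 25814364 reads on genes (median 21167241), and 3 reads correspond to at most 0.183 CPM, the reads on a gene per 1000000 reads on all genes. The labelled cell type was reflected in the markers of the IP: 9 of 9 astrocyte markers were higher in IP than in INPUT of naïve mice (median log2 ratio 3.55), and 18 of 18 neuronal markers were lower. Neuronal RNA was not absent from the IP, however. The lowest neuronal marker value there was 1.52 CPM (Slc32a1), no neuronal marker was at 0, and the 18 together summed to 653 to 1030 CPM, against 14501 to 16978 CPM in INPUT. In a bulk sample, fewer cells of a type and less RNA per cell cannot be told apart. Naïve IP replicate 11 held the lowest naïve IP value of 41.7% of all genes tested, and naïve INPUT replicate 3 the lowest naïve INPUT value of 7 of the 10 genes, against 19.4% of all genes. Ttr, a choroid plexus gene, reached 113.6 CPM in naïve IP replicate 2 and 13.4 CPM in naïve INPUT replicate 3, with group medians of 3.36 and 0.708 CPM.

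Arc was the most abundant of the 10 genes per kilobase of exon in all 4 groups. In naïve INPUT it averaged 96.2 ± 55.5 CPM per kb (SD, n = 4), followed by Egr1 (35.9), Homer1 (35.9), Egr3 (29.8) and Ier5 (27.9), and these 5 neighbours overlapped in their ranges. Egr4 (8.87 CPM per kb) stood apart from Ier5 above it and from Btg2 below it. Btg2 (3.89), Ier2 (3.31), Npas4 (2.66) and Egr2 (1.72) closed the order, each overlapping the next. Homer1 is given here over all its exons, and its short and long forms were not separated in the counts.

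The order differed in the IP. In naïve IP, Arc (8.94 CPM per kb) was followed by Ier5 (5.67), Homer1 (4.64), Egr1 (2.22), Egr3 (2.13), Btg2 (1.84), Ier2 (1.12), Egr4 (0.580), Npas4 (0.403) and Egr2 (0.0962). Egr1 thus stood below Ier5 in the IP and above it in INPUT, by group means. Egr2 rested on 2 to 15 reads in a naïve IP library and on 5 to 11 in a stress IP library, so it was hardly measurable there.

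**Figure D1:**
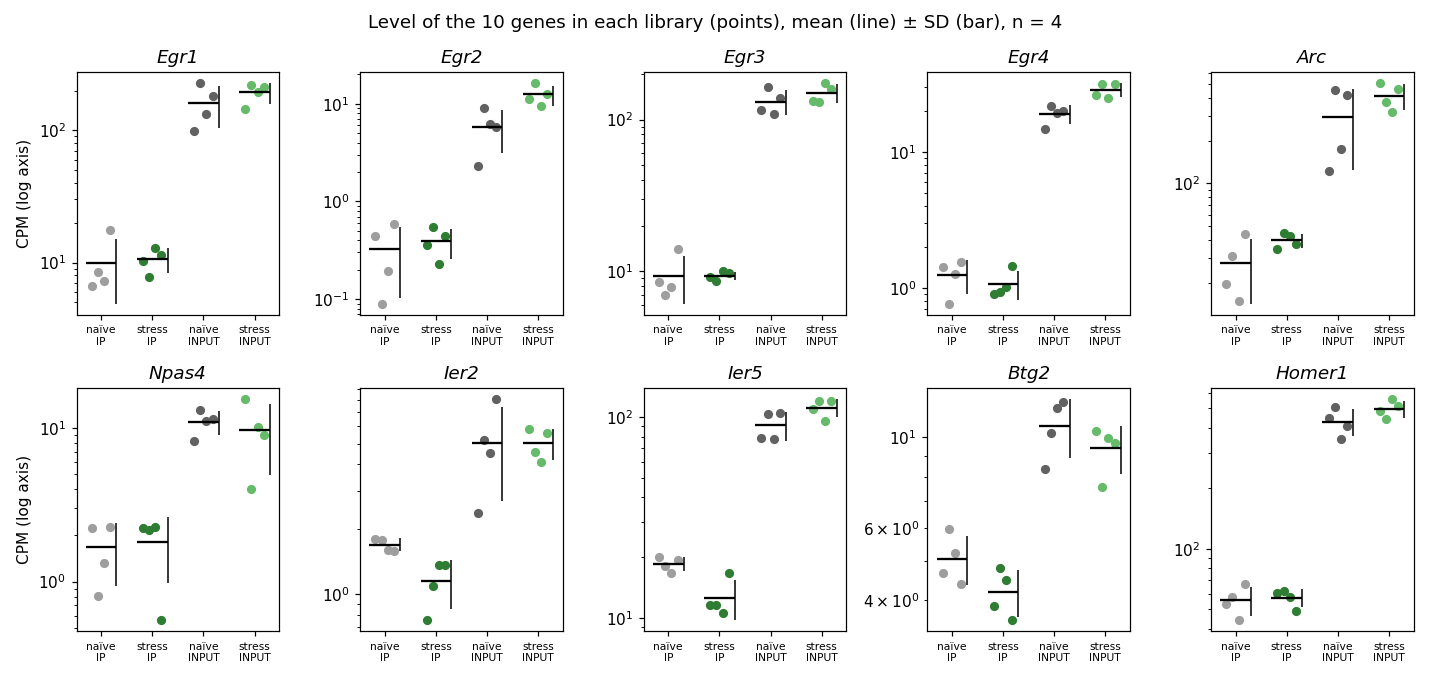
Level of each of the 10 genes in CPM (log axis, 1 panel per gene) in IP and INPUT of naïve and stressed mice, with each library as a point, the mean as a line and the SD as a bar (n = 4). All IP points lie below all INPUT points in the same condition for each gene, and the naïve and stress INPUT points are apart for Egr2 and Egr4 only.

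The stress comparison in INPUT addressed whether whole cortex still carried an early gene response 90 min after the swim. None of the 10 genes passed the adjusted threshold of limma (0 of 10, against 0.0442% of the 13577 genes tested), while at an unadjusted p under 0.05 there were 4, all higher (2.61% of all genes), and limma-voom, the study's method, also called 0. The values of Egr2 and Egr4 nevertheless separated completely between naïve and stressed mice.

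Egr2, the family member known for its role in peripheral myelination, measured 2.32, 9.01, 6.23 and 5.85 CPM in naïve INPUT replicates 3, 7, 14 and 16. In stress INPUT replicates 1, 9, 10 and 12 it measured 11.3, 16.4, 9.59 and 12.6 CPM. All 4 stress values lay above all 4 naïve values, which was the case in this direction for 1.43% of all genes. The means were 5.85 ± 2.75 and 12.5 ± 2.88 CPM, a ratio of 2.13, and the log2 difference was 1.20 ± 0.31 (SE) with an adjusted p of 0.40 in limma. The two-sided exact permutation test gave p = 0.029, the smallest that 70 labelings allow. Any complete separation of the 2 groups gives this value, so it restates the separation. Naïve replicate 3 carried part of the difference, which was 0.82 on the log2 scale without it.

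Egr4 measured 14.9, 22.0, 19.4 and 19.9 CPM in the naïve INPUT libraries and 26.5, 31.9, 25.2 and 31.7 CPM after stress, in the same order of replicates. Again no stress library fell within the naïve range. The ratio of the means was 1.51, with a log2 difference of 0.60 ± 0.12 (SE), an adjusted p of 0.12 in limma and an exact permutation p of 0.029. Without naïve replicate 3 the log2 difference was 0.49. With array weights, which give less weight to libraries that fit poorly, the adjusted p of Egr4 was 0.030. Under other alternatives its limma adjusted p was up to 0.84. It passed in 0 of the 8 fits that left out 1 library, with an adjusted p of 0.11 to 0.53.

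The other 2 family members overlapped between conditions. Egr1, the most studied of the 4 as a marker of neuronal activity, measured 98.9, 229, 133 and 183 CPM in naïve INPUT and 144, 221, 196 and 213 CPM in stress INPUT, so that only naïve replicates 3 and 14 lay below every stress value. Its log2 difference was 0.32 (95% confidence interval −0.13 to 0.76). Egr3, which is induced by many of the same signals as Egr1, measured 116, 163, 109 and 138 CPM against 132, 130.2, 174 and 159 CPM, a log2 difference of 0.19 (−0.07 to 0.45).

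Arc encodes a protein that shapes AMPA receptor traffic at active synapses. It had the largest coefficient of variation of the set in naïve INPUT (57.7%), with 123 and 175 CPM in replicates 3 and 14 and 459 and 419 CPM in replicates 7 and 16. After stress it measured 512, 376, 319.6 and 460.3 CPM. The stress libraries thus fell between and above the naïve pairs, and the log2 difference of 0.69 ± 0.33 (SE) had an adjusted p of 0.99. Without naïve replicate 3 it was 0.35.

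Homer1 and Ier5 had higher means after stress, with overlap. Homer1, a scaffold of postsynaptic metabotropic glutamate receptors, measured 449.8, 508, 351 and 408 CPM in naïve INPUT and 484, 442, 556 and 512 CPM after stress, a log2 difference of 0.22 ± 0.10 (SE; limma adjusted p = 0.97). Ier5 measured 78.8, 103, 78.2 and 106 CPM against 109.99, 120.1, 96.0 and 121 CPM, a log2 difference of 0.30 ± 0.11 (adjusted p = 0.83). Only stress replicate 10 lay within the naïve range of Ier5. The exact permutation p was 0.17 for Homer1 and 0.11 for Ier5.

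The remaining 3 genes had log2 differences on both sides of 0. Npas4 measured 8.25, 13.1, 11.1 and 11.5 CPM in naïve INPUT and 15.4, 4.02, 10.2 and 8.99 CPM after stress, so that the stress group held both the highest and the lowest value. The log2 difference of Npas4 was −0.31 (95% confidence interval −0.96 to 0.33), and it was 0.05 without stress replicate 9. Ier2 measured 2.37, 5.18, 4.54 and 8.04 CPM against 5.86, 4.57, 4.11 and 5.57 CPM, and Btg2 measured 8.36, 10.2, 11.8 and 12.2 CPM against 10.4, 7.56, 9.95 and 9.71 CPM. The log2 differences were 0.11 for Ier2 and −0.17 for Btg2, the stress values of Ier2 lay within its naïve range, and only stress replicate 9 lay below that of Btg2.

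**Figure D2:**
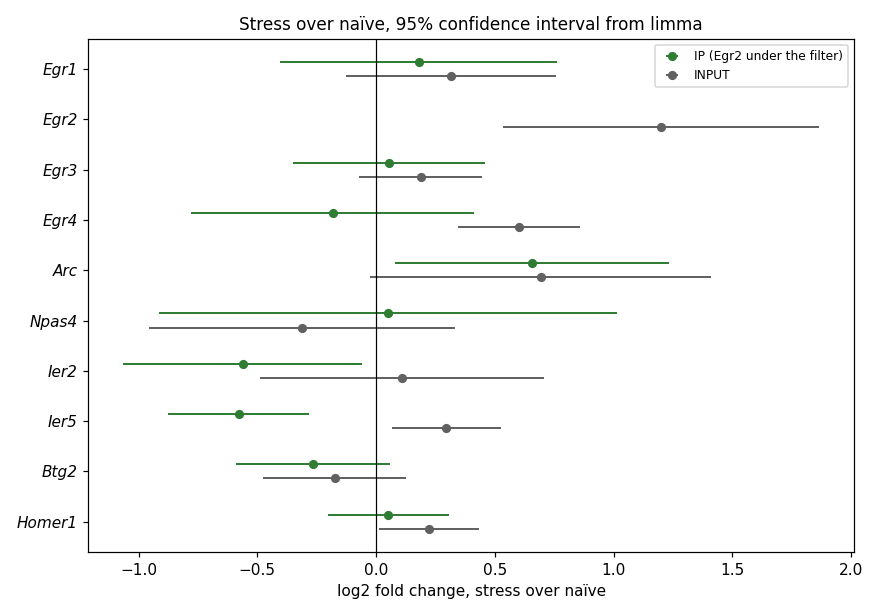
Log2 fold change of stress over naïve for each gene in IP (green) and INPUT (grey), with the 95% confidence interval from limma, n = 4 libraries in each group. In INPUT, Egr2 (1.20) and Egr4 (0.60) lie farthest above 0 relative to their intervals, and in IP Ier5 (−0.58) and Ier2 (−0.56) lie below 0; Egr2 in IP was under the filter and has no point.

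In the IP the same comparison asked whether ribosome-bound RNA of astrocytes differed after the swim. Of the 10 genes, 9 had a mean above 1 CPM and were tested, Egr2 not among them, and 0 passed the adjusted threshold in limma, against 0.44% of the 12501 genes tested. At an unadjusted p under 0.05 there were 3, Arc higher and Ier2 and Ier5 lower (3.45% of all genes higher and 4.82% lower), and limma-voom called 0.

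Ier5 had the largest difference relative to its error. It measured 20.0, 18.05, 16.7 and 19.5 CPM in naïve IP replicates 2, 8, 11 and 13, and 11.5, 11.5, 10.5 and 16.8 CPM in stress IP replicates 4, 5, 6 and 15. Of the stress libraries, 3 lay well below the naïve range and replicate 15 lay just inside its lower end. The ratio of the naïve to the stress mean was 1.48, the log2 difference was −0.58 ± 0.14 (SE), the adjusted p in limma was 0.14 and the exact permutation p was 0.057. Without stress replicate 15 the log2 difference was −0.72 with an adjusted p of 0.0041, and with array weights it was −0.68 with an adjusted p of 0.0095. With all 16 libraries in one model the adjusted p was 0.038. The fit without stress replicate 15 was the only 1 of the 8 leaving out 1 library that passed. In the others the limma adjusted p of Ier5 was up to 0.45, and under the other alternatives it was up to 0.27.

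Ier2 measured 1.81, 1.79, 1.61 and 1.59 CPM in naïve IP and 0.758, 1.08, 1.37 and 1.37 CPM in stress IP, so that every stress value was below every naïve value. These values rested on 37 to 41 reads a naïve library and 17 to 34 a stress library. That pattern was found in 2.62% of all genes tested. The log2 difference was −0.56 ± 0.23 (SE; limma adjusted p = 0.55; exact permutation p = 0.029). Btg2 measured 4.65, 5.96, 5.21 and 4.38 CPM against 3.88, 4.78, 4.47 and 3.58 CPM, a log2 difference of −0.27 (95% confidence interval −0.59 to 0.06), with overlap.

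Arc measured 19.4, 30.9, 14.8 and 44.2 CPM in naïve IP and 34.7, 44.5, 42.3 and 37.5 CPM in stress IP. The stress libraries were close together at the upper end of a wide naïve range. The log2 difference of 0.66 ± 0.26 (SE) had a limma adjusted p of 0.54 and an exact permutation p of 0.14. Without naïve replicate 11, the lowest, the log2 difference was 0.41. Homer1 stayed in a narrow band, with 53.5, 57.4, 44.3 and 67.0 CPM against 60.7, 61.6, 57.4 and 48.9 CPM and a log2 difference of 0.05 (95% confidence interval −0.20 to 0.31).

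The Egr factors and Npas4 overlapped between conditions in the IP. Egr1 measured 6.61, 8.42, 7.28 and 17.5 CPM in naïve IP and 10.3, 7.74, 13.0 and 11.4 CPM after stress, a log2 difference of 0.18 (−0.40 to 0.76). Egr3 measured 8.47, 6.99, 7.87 and 14.1 CPM against 9.14, 8.63, 10.00 and 9.72 CPM, a log2 difference of 0.05 (−0.35 to 0.46). For both genes naïve replicate 13 was the highest of the 8 libraries, and without it the log2 differences were 0.49 for Egr1 and 0.27 for Egr3.

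Egr4 measured 1.42, 0.761, 1.25 and 1.55 CPM in naïve IP against 0.892, 0.937, 1.00 and 1.45 CPM, a log2 difference of −0.18 (−0.78 to 0.41), and showed none of the separation seen in INPUT. Npas4 measured 2.25, 0.806, 1.33 and 2.29 CPM in naïve IP and 2.23, 2.17, 2.28 and 0.563 CPM after stress. The stress value of replicate 15 was thus far below the other stress values, and the log2 difference of Npas4 went from 0.05 to 0.50 without it. Egr2 was between 0.0896 and 0.581 CPM in naïve IP and between 0.228 and 0.542 CPM in stress IP.

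Neuronal markers also varied between the IP libraries. Their sum was 844, 797, 883 and 1030 CPM in naïve IP replicates 2, 8, 11 and 13 and 699, 653, 716 and 940 CPM in stress IP replicates 4, 5, 6 and 15. Replicate 13, with the highest naïve sum, was the highest naïve library for 6 of the 9 tested genes (Egr1, Egr3, Egr4, Arc, Npas4 and Homer1), against 26.9% of all genes, and the lowest for 2 (Ier2 and Btg2), against 19.0%. Replicate 15, with the highest stress sum, was the highest stress library for 2 of the 9 (Egr4 and Ier5), against 27.7% of all genes, and the lowest for 3 (Npas4, Btg2 and Homer1), against 33.2%. Of the 9 tested genes 5 had a positive and 4 a negative stress difference in IP, with a median of 0.05 on the log2 scale. Of the 18 neuronal markers 16 had a negative stress difference in IP, with a median of −0.25 on the log2 scale and 0 past the threshold, while in INPUT the median was −0.01. The part of this neuronal RNA in the IP values of Ier5, Ier2 and the others was not tested.

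The stress effects of the 2 fractions were then compared directly, on all 16 libraries. The libraries were fitted as independent, although IP and INPUT came from the same mice. The difference (IP minus INPUT) passed the adjusted threshold for 0 of the 10 genes, against 0.0225% of the 13341 genes tested, and at an unadjusted p under 0.05 there were 2, both lower in IP (2.82% of all genes). These were Ier5, with −0.87 ± 0.19 (SE, log2; limma adjusted p = 0.19), and Egr4, with −0.79 ± 0.27 (adjusted p = 0.86). Ier5 was lower after stress in IP and higher in INPUT by group means, and without stress IP replicate 15 the difference was −1.02 with an adjusted p of 0.0075. That was the only 1 of the 16 fits leaving out 1 library that passed. In the others the limma adjusted p was up to 0.47. Under the alternatives it was 0.032 to 0.43, and the difference of Ier5 passed with array weights. Egr2 had a difference of −0.87 with a wide interval (−2.03 to 0.30). Its IP values rested on few reads, and its naïve INPUT values also spread widely, from 2.32 to 9.01 CPM. For Arc the difference was −0.04 (−1.08 to 1.00), an interval on both sides of 0.

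All 10 genes were lower in IP than in INPUT. In naïve mice 10 of 10 passed the adjusted threshold of limma as lower, against 64% of the 13339 genes tested, and for each of the 10 all IP values were below all INPUT values, as for 61.4% of all genes. In stressed mice it was again 10 of 10, against 62.5% of 13333 genes, and again all IP values of each were below all INPUT values, as for 59% of all genes. The median log2 ratio of the 10 genes in naïve mice was −3.14, that of all genes −0.64 and that of the 18 neuronal markers −4.19, with a range of −5.43 (Sst) to −3.07 (Camk2a).

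The 4 Egr factors lay within the range of the neuronal markers. In naïve mice their log2 ratios were −4.05 ± 0.29 for Egr1, −3.82 ± 0.44 for Egr2, −3.83 ± 0.19 for Egr3 and −3.86 ± 0.20 for Egr4 (SE, n = 4 libraries in each fraction). In CPM, INPUT exceeded IP by 16.2 times for Egr1, 17.9 times for Egr2, 14.0 times for Egr3 and 15.3 times for Egr4. Arc, at −3.34 ± 0.40, was near the upper end of that range. Such ratios were not particular to neuronal markers. In naïve mice the 5 microglial markers ran from −4.22 to −2.74, which also held the 4 Egr factors and Arc. The 5 oligodendrocyte markers ran from −3.75 to −3.06 and the 4 endothelial markers from −3.89 to −1.91. The cell type behind the ratios was not tested. In stressed mice the ratios of the Egr factors ran from −3.97 (Egr3) to −4.69 (Egr2), and that of Arc was −3.37. The value of Egr2 depends on the constant added before the logarithm, since its IP reads were few, and was −2.28 in naïve mice with a constant of 1 CPM.

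The other 5 genes were less depleted than every neuronal marker in naïve mice. Homer1 followed closely at −2.95 ± 0.12 (SE), then Npas4 at −2.74 ± 0.28, Ier5 at −2.28 ± 0.11, Ier2 at −1.39 ± 0.28 and Btg2 at −1.06 ± 0.15. Some markers of other cell types lay in this span too. The 2 markers of oligodendrocyte precursors were at −2.61 (Pdgfra) and −1.53 (Cspg4), and the endothelial marker Flt1 was at −1.91. Of the 2 mural markers tested, Rgs5 was at −1.60 and Pdgfrb at 2.37. Ier2 and Btg2 were less depleted than all of these but Pdgfrb. Btg2 averaged 5.05 ± 0.698 CPM in naïve IP (SD, n = 4) and 10.7 ± 1.75 CPM in naïve INPUT, a ratio of 2.11, the smallest of the 10. With quantile normalization, which forces IP and INPUT to 1 common distribution, the naïve log2 ratios of Ier2 and Btg2 were −0.38 and −0.29 and no longer passed (limma adjusted p = 0.27 and 0.082). Quantile normalization and rescaling by the median ratio moved the median of all genes in naïve mice from −0.64 to 0.02 and 0.00, and all 10 genes kept negative log2 ratios under both. After stress Homer1 (−3.12 ± 0.09) and Ier5 (−3.16 ± 0.13) lay inside the range of the neuronal markers, which then ended at −3.10 (Camk2a). Npas4 (−2.37 ± 0.45), Ier2 (−2.06 ± 0.22) and Btg2 (−1.15 ± 0.15) stayed outside it.

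**Figure D3:**
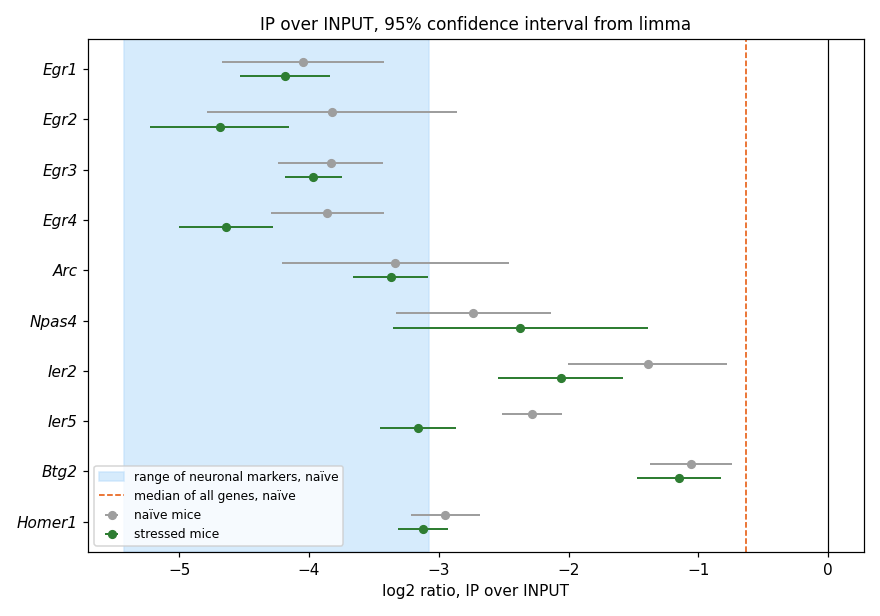
Log2 ratio of IP over INPUT for each gene in naïve (grey) and stressed (green) mice, with the 95% confidence interval from limma; the band is the range of the 18 neuronal markers in naïve mice and the dashed line the median of all genes in naïve mice. Egr1 to Egr4 and Arc lie in the band, and in naïve mice Homer1, Npas4, Ier5, Ier2 and Btg2 lie to its right, with Btg2 (−1.06) nearest to the median of all genes.

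Pairs of the 10 genes were compared across libraries. Over deviations from the group means in the 8 INPUT libraries, 38 of the 45 pairs of genes had a positive Pearson's r, 20 had an r above 0.5, and the median was 0.40. In IP, 23 of 36 pairs were positive, 7 were above 0.5 and the median was 0.09. These points share library, depth and dissection, so the values are a description. Pairs of other genes were not examined, so whether these counts differ from those of all genes is not known. Without naïve INPUT replicate 3 the counts in INPUT were 35 positive pairs and 14 above 0.5, with a median r of 0.27.

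A mean profile of the 10 genes was also formed over the 8 INPUT libraries without centring on the groups, so that its r values include the difference between naïve and stress, and each of the 10 is part of the profile. Arc had the highest r with it (0.96) and Npas4 and Btg2 had the lowest (0.24 for both). The non-members closest to the profile were Naa25 (r = 0.94), Gpr3 (0.94), Fos (0.94), Wisp1 (0.93) and Cnnm4 (0.92), of which Fos is another immediate early gene. For the profile of the 9 tested genes in IP, formed in the same way, the closest non-members were 1700086L19Rik (r = 0.97), Pold4 (0.97), Snx12 (0.95), Thoc6 (0.94) and Peli3 (0.92). The IP profile was highest in naïve replicate 13. Without that library 18 of 36 pairs of genes were positive in IP.

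**Figure D4:**
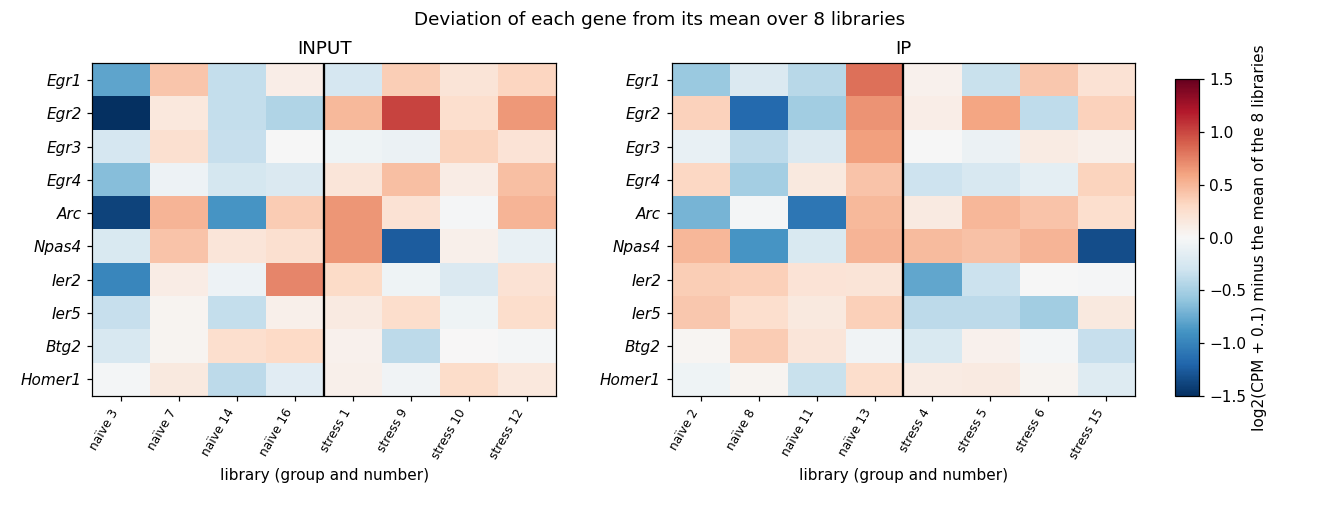
Deviation of each gene in each library from its mean over the 8 libraries of INPUT (left) or IP (right), as a colour on the log2(CPM + 0.1) scale, which ends at ±1.5 (larger deviations have the end colour); the black line divides naïve from stress libraries. Naïve INPUT replicate 3 is the lowest naïve library for 7 of the 10 genes, and naïve IP replicate 13 is high for Egr1, Egr3 and Arc.

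Other immediate early genes gave a frame for these values. Of 28 further rapid immediate early genes, 25 were tested in INPUT, and 23 of these had positive log2 differences with a median of 0.30. For the 10 genes it was 8 of 10, with a median of 0.26, and over all genes the median was 0.00. Naïve INPUT replicate 3 was the lowest naïve library for 19 of the 25 rapid genes, against 19.4% of all genes. Without it, 19 of the 25 were positive with a median of 0.19, and 7 of the 10 with a median of 0.18. Fosb, an AP-1 factor, was the only one of the 25 past the threshold, with 12.4 ± 1.80 CPM in naïve INPUT and 27.0 ± 2.40 CPM in stress INPUT (SD, n = 4; log2 difference 1.13, limma adjusted p = 0.0018). Without a variance trend its adjusted p was 0.087 and with all 16 libraries in one model 0.090. For IP over INPUT in naïve mice, 24 of the rapid genes were tested, and 18 passed as lower and 3 as higher. Their median log2 ratio was −1.79 (−3.88 to 2.54), against −3.14 (−4.05 to −1.06) for the 10 genes.

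In IP, 21 of the rapid genes were tested, 14 had positive differences, and the median was 0.29, against 5 of 9 and 0.05 for the genes followed here. Without naïve IP replicate 11 it was 16 of 21 with a median of 0.49, against 2 of 9 and −0.05. The medians were closer without naïve IP replicate 13, with 15 of 21 positive and 0.29, against 5 of 9 and 0.15. Nr4a1, an orphan nuclear receptor, rose from 10.3 ± 2.00 to 28.2 ± 5.70 CPM (log2 difference 1.45, limma adjusted p = 0.0033) and passed the threshold in all 8 fits that left out 1 library. Tiparp, a mono-ADP-ribosyltransferase, rose by a log2 difference of 0.58 (adjusted p = 0.038) and Jun, an AP-1 factor, fell by 0.82 on the log2 scale (adjusted p = 0.044). Tiparp and Jun passed in 2 of the 8 fits that left out 1 library, those without naïve replicate 11 or stress replicate 15, and lost the call in the other 6 with an adjusted p of up to 0.16 for Tiparp and 0.17 for Jun.

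Of 16 delayed activity genes, a class that includes secreted factors and their processing enzymes, 15 had positive differences in INPUT (median 0.14, 0 past the threshold) and 4 in IP (median −0.18). Their median log2 ratio of IP over INPUT in naïve mice was −3.15. Rgs2, a regulator of G-protein signalling, was past the threshold in IP, with a log2 difference of 0.56 (limma adjusted p = 0.042). It too passed in 2 of the 8 fits that left out 1 library, with an adjusted p of up to 0.16 in the others. Among 15 regulators and cofactors of the Egr genes, such as the corepressors Nab1 and Nab2 and the factors Srf and Creb1, 0 passed in either fraction, with medians of −0.03 in INPUT and −0.05 in IP. Among 17 partners and paralogs, such as Arnt2, Btg1, Homer2 and Shank3, 0 passed in either fraction, with medians of −0.06 in INPUT and −0.05 in IP.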

How the data were processed

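RNA was sequenced from 16 libraries, 4 per group. The authors aligned reads with STAR to mm10, counted uniquely mapped fragments on RefSeq genes with HTSeq, and deposited log2 CPM values per gene, each library scaled to its own total of 1000000 without gene length. Removing the constant behind the floor (−6.40 on the log2 scale in all libraries) gave whole reads for 100% of values, within 0.05 of a read. Group differences were fitted by limma 3.58.1 (R 4.3.3, variance trend) to log2(CPM + 0.1). Genes had to average more than 1 CPM over the libraries compared, and the threshold was a Benjamini-Hochberg adjusted p under 0.05 over all genes tested. This scale understates the changes of low genes. The 10 genes were also given exact permutation tests (two-sided, 70 labelings), with p not adjusted for the number of tests. Floors of 3 reads cover counting error alone. Levels per kb used merged exons of GENCODE M21. Correlations, counts and plots used Python 3.11.15, NumPy 2.4.6, pandas 2.3.3, SciPy 1.17.1 and matplotlib 3.10.9. The strand setting of the counting is not given in the sources used here.

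The 10 genes and the other gene lists were chosen with earlier results of these data known. All 10 are named with every value, and genes of the other lists are named when they passed the threshold for stress in either fraction. Alternatives were constants of 1 and 0.01 CPM, a filter at 5 CPM or none, quantile normalization or median-ratio rescaling, array weights, a fit without variance trend, limma-voom (on the recovered reads), one model of all 16 libraries, a covariate of Xist level because sex is not in the labels, and leaving out each library in turn. The co-variation and the list medians without single libraries were added after seeing the data.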

Additional observations from a re-analysis of the deposited data

Results flagged for a closer look

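Over the 10 genes and 4 groups, 40 sets of 4 values were checked for a library far from the other 3 (a gap to the nearest value, relative to the whole range, above Dixon's 95% critical value), a rule that chance alone meets in about 1 of 20 sets. It was met 3 times, each time in the IP. Egr1 in naïve IP replicate 13 was at 17.5 CPM, with the other naïve IP libraries at 6.61 to 8.42 CPM. Npas4 in stress IP replicate 15 was at 0.563 CPM, with the others at 2.17 to 2.28 CPM. Ier5 in the same library was at 16.8 CPM, with the others at 10.5 to 11.5 CPM. Replicates 13 and 15 held the highest neuronal marker sums of their groups, 1030 and 940 CPM. Egr1 and Ier5 were highest there too, while Npas4 was lowest in the library with the highest stress sum, and the part of that RNA in these values was not tested.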

How the results depend on the processing

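No paired analysis was possible because the labels number the libraries 1 to 16 without repeats, and do not tie the IP of a mouse to its INPUT. The errors and p values of IP over INPUT and of the difference between fractions thus leave out the shared mouse. The lower level in IP passed the threshold for all 10 genes under every alternative that tested them except quantile normalization in naïve mice, where Ier2 and Btg2 did not pass. For stress, array weights called 1 of the 10 genes in IP, Ier5 (143 genes in all, against 55), and 1 in INPUT, Egr4 (50 against 6). For the difference between fractions array weights called 1, Ier5 (19 against 3). With all 16 libraries in one model 1 of the 10 was called in IP (124 genes in all) and 0 in INPUT (2 genes in all), and without a variance trend the counts over all genes were 19 in IP and 0 in INPUT, where Ier2 had a log2 difference of −0.038 with array weights. Leaving out 1 library gave 17 to 122 genes in IP, 1 to 32 in INPUT and 2 to 28 for the difference, with 0 to 1 of the 10 genes in IP and for the difference, and 0 in INPUT. The counts over all genes do not say which genes passed, and the cause of their changes was not tested.

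Leaving out 1 library also turned the sign of small log2 differences, none of them past the threshold. In IP the ranges were −0.067 to 0.27 for Egr3, −0.24 to 0.50 for Npas4 and −0.052 to 0.15 for Homer1. In INPUT they were −0.20 to 0.37 for Ier2 and −0.59 to 0.053 for Npas4. For the difference between fractions they were −0.33 to 0.17 for Egr1, −0.26 to 0.080 for Egr3, −0.32 to 0.31 for Arc, −0.0032 to 0.82 for Npas4 and −0.19 to 0.019 for Btg2. Egr2 in IP, with 2 to 15 reads a naïve library, is limited by depth. Other low IP values also rested on few reads, down to 17 for Egr4 and Ier2 and 14 for Npas4, and counting error was not separated from the spread between mice.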
